A study of Arabidopsis thaliana with 14 samples.

Results

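Expansins are wall proteins that loosen the cellulose and xyloglucan network of growing plant cells without cutting it, and they act best in an acidic wall. Alpha-expansins (EXPA) carry the classical wall-loosening activity, whereas the expansin-like A proteins (EXLA) share the fold of the family but have no established wall-loosening activity. The RNA of 10 of these genes was described here, 7 alpha-expansin genes (EXPA1, AT1G69530, EXPA4, AT2G39700, EXPA5, AT3G29030, EXPA8, AT2G40610, EXPA10, AT1G26770, EXPA11, AT1G20190, and EXPA16, AT3G55500) and 3 expansin-like A genes (EXLA1 or EXPL1, AT3G45970, EXLA2 or EXPL2, AT4G38400, and EXLA3, AT3G45960). They were taken by gene ID, 10 of the 33602 genes in each file and 10 of the 36 genes of the Arabidopsis expansin family, and all 10 passed the filter on low values. EXLA1, EXLA2 and EXPA8 were among the genes that the study itself named from part of these libraries, so their directions are not independent evidence.

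The study asked which genes the histone deacetylase HDA6, its partner FVE and the histone demethylase FLD regulate together. RNA of 14-day-old Arabidopsis thaliana seedlings, all in the Col-0 background and grown with 16 h of light a day, was sequenced. The groups were hda6-6 (also called axe1-5, a splice-site point mutation in HDA6), hda5-1 and hda9-1 (mutants of the related deacetylase genes HDA5 and HDA9), fve-4 (an early stop codon in FVE), fld-6 (a T-DNA in an FLD exon, the second) and Col wild type. hda6-6, hda5-1, hda9-1 and Col had 3 libraries each, while fve-4 and fld-6 had 1 library each. Each mutant was represented by 1 allele, and RNA came from all cells of a seedling sample at once, so that fewer cells with a transcript and less transcript per cell cannot be told apart. The study's methods call the hda6-6 and Col libraries biological repeats. For hda5-1 and hda9-1 the sources used here do not say whether the replicates were separate cultures, so that their spread may be technical.

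Levels were given in RPKM, read numbers scaled by the exon length of the gene and by the mapped reads of the library. From the steps between low values, about 17800000 to 25500000 mapped reads a library were estimated, which put the lowest member value (EXLA3 in Col) at about 12 reads and the highest (EXLA1 in hda6-6) at about 5573 reads. At the RNA level, the mutated gene was lower in the library of its label for HDA6 in hda6-6 (log2 fold change -1.46), HDA5 in hda5-1 (-1.59), HDA9 in hda9-1 (-2.94) and FVE in fve-4 (-6.05), whereas FLD had 3.52 RPKM in fld-6, inside the range of 3.42 to 4.08 RPKM in Col. The hda6-6 and Col files listed the genes in one order and the files of the other 4 genotypes in another. Whether these sets were processed apart is not given in the sources used here, and for those 4 genotypes a difference in processing cannot be told apart from the genotype.

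The sequences that separate the 2 classes are shown first, because the classes also differed in their RNA. All 7 alpha-expansin genes encoded the histidine-phenylalanine-aspartate motif that is typical of the catalytic-like domain of this subfamily, and none of the 3 expansin-like A genes did. The coding bases around it, from RefSeq TAIR10.1, are given 5′ to 3′ with the codons of the motif in capitals.
EXPA1: cctcagcagCATTTTGATctctctcag
EXPA4: ccacgtgaaCACTTTGACctagccatg
EXPA5: cccaaccacCATTTCGATctttctcag
EXPA8: cctcttcagCATTTCGACctcgccgag
EXPA10: cctcttgaaCACTTTGACcttgctcag
EXPA11: ccgcttaaaCATTTCGACatggcacaa
EXPA16: ccacgctctCATTTCGACctcgccatg

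The 3 expansin-like A genes instead encoded a cysteine-aspartate-arginine-cysteine motif that is known for the expansin-like proteins, and none of the 7 alpha-expansin genes did. Its codons are in capitals in the coding bases around it.
EXLA1: gttaacgctTGTGATCGATGTcttcaccgt
EXLA2: gcagccgccTGCGACCGATGTcttcacagt
EXLA3: gttaacgctTGTGATCGATGTctacaccgt
The transcripts of EXLA1 and EXLA3 shared a longest identical run of 57 bases. The encoded proteins were 80.6 to 86.3% identical among the expansin-like A genes, 56.3 to 84.8% identical among the alpha-expansins, and 26.3 to 30.2% identical between the classes. Longest identical runs between a transcript of one class and one of the other were 9 to 12 bases, whereas EXPA1 and EXPA10 shared 32 bases, and EXPA4 and EXPA16, like EXPA5 and EXPA10, shared 29 bases. The read length, and how reads that match more than 1 gene were counted, are not given in the sources used here.

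EXLA3 (chr3:16892702-16894153, plus strand) and EXLA1 (chr3:16896166-16897308, plus strand) lay one after the other on chromosome 3, and EXLA2 (chr4:17978422-17979740, minus strand) lay on chromosome 4 of TAIR10.1. EXLA1 overlapped the opposite-strand gene AT3G45980 by 22 bases, and no other member overlapped an annotated gene. The 250 bases before the annotated start are shown for the 3 genes because all 3 rose in hda6-6 and hda5-1. The capitals mark the longest runs that EXLA1 shared with EXLA2 (TATGACGTGAC) and with EXLA3 (TTAGATATTGAGA). The windows are chr3:16895916-16896165 for EXLA1, chr4:17979741-17979990 for EXLA2 and chr3:16892452-16892701 for EXLA3, read in the direction of the gene.
EXLA1: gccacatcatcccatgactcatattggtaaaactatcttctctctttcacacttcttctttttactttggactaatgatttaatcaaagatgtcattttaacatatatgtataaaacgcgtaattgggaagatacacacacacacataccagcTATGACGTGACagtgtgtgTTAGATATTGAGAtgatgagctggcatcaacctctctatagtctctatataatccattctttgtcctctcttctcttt
EXLA2: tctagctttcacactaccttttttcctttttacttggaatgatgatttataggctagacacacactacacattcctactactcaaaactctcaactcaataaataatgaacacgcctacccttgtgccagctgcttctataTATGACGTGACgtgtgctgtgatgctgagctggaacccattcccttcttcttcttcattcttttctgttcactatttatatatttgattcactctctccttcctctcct
EXLA3: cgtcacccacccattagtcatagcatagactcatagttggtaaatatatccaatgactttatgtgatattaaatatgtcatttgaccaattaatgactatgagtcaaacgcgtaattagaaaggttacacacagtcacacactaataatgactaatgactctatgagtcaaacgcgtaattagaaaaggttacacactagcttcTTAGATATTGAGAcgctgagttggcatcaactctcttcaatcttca
On both strands, TATGACGTGAC was found in 2 of 27443 promoters of this length, which were EXLA1 and EXLA2, beginning 97 and 109 bases before the gene start. TTAGATATTGAGA was found in 4 of the 27443, beginning 78 bases before EXLA1 and 46 bases before EXLA3. The letters TGACG inside the first run, known as a core that bZIP factors can bind, were in all 3 expansin-like A promoters and in 18.6% of all promoters, and in no alpha-expansin promoter. Runs of this length were not particular to these pairs. EXPA1 and EXPA10 shared 14 bases, EXPA11 and EXLA1 shared 12 bases across the classes, and EXLA2 and EXLA3 shared 9 bases. The runs were picked as the longest shared ones after the values had been seen, and a match of letters is a description and not a binding site.

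The promoters of EXPA1, EXPA10 and EXPA8 are shown because these genes were among those that fell. Capitals mark CACATG in EXPA1 and EXPA10 and the W-box core TTGAC in EXPA8, on either strand. In EXPA1 and EXPA10 the letters CACATG occurred on both strands, overlapping. The windows are chr1:26141476-26141725 for EXPA1, chr1:9259182-9259431 for EXPA10 and chr2:16950706-16950955 for EXPA8.
EXPA1: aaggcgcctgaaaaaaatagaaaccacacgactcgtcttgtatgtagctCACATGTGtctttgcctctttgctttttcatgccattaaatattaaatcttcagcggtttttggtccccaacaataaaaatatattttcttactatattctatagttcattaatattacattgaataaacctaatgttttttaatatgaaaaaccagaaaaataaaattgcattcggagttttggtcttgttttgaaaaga
EXPA10: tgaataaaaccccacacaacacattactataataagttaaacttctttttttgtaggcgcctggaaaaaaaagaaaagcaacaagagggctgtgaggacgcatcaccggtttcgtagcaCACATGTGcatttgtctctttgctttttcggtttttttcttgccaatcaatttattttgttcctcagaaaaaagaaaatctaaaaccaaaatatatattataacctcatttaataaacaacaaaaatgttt
EXPA8: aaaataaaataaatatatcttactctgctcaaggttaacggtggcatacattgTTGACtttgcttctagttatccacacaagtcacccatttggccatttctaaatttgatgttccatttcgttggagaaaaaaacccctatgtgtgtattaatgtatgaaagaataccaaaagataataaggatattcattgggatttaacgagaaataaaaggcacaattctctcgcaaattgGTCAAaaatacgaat
CACATG was in 3 of the 7 alpha-expansin promoters (EXPA1, EXPA10 and EXPA11), in 0 of the 3 expansin-like A promoters and in 11.1% of all 27443. TTGAC was in 2 of the 7 (EXPA4 and EXPA8), in 1 of the 3 (EXLA3) and in 44.9% of all. The G-box CACGTG (6.49% of all promoters), the evening element AAAATATCT (2.36%) and the GCC-box GCCGCC (1.87%) were in 0 of the 10 windows.

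Each mutant was then compared with Col wild type. In hda6-6, 4 of the 10 genes rose (EXLA1, EXLA2, EXLA3 and EXPA16) and 3 fell (EXPA1, EXPA8 and EXPA10), against 7.95% of all 23187 tested genes called higher and 4.96% called lower. A gene was called when its adjusted p in limma, with Benjamini-Hochberg adjustment over all tested genes, was under 0.05 and its log2 fold change of RPKM + 0.1 was at least 1 in size. In hda5-1, 3 rose and 3 fell, where the shares of all genes were 5.51% and 3.94%. In hda9-1, 3 rose and 3 fell, with 2.1% and 3.75% of all genes. In fve-4, 3 rose and 4 fell, with 3.9% and 3.98% of all genes. The fld-6 library had 1 that rose and 1 that fell, with 0.677% and 1.13% of all genes. The 3 expansin-like A genes had a median log2 fold change of 3.88 in hda6-6, 3.51 in hda5-1, 1.69 in hda9-1, 1.13 for the fve-4 library and 1.05 in fld-6. The 7 alpha-expansin genes had -0.98, -0.76, -0.62, -1.23 and -0.51 in the same order, and over all tested genes the median was 0.05, 0.04, 0.08, 0.19 and 0.02. The 5 comparisons share the Col libraries and are not independent of each other.

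**Figure D1:**
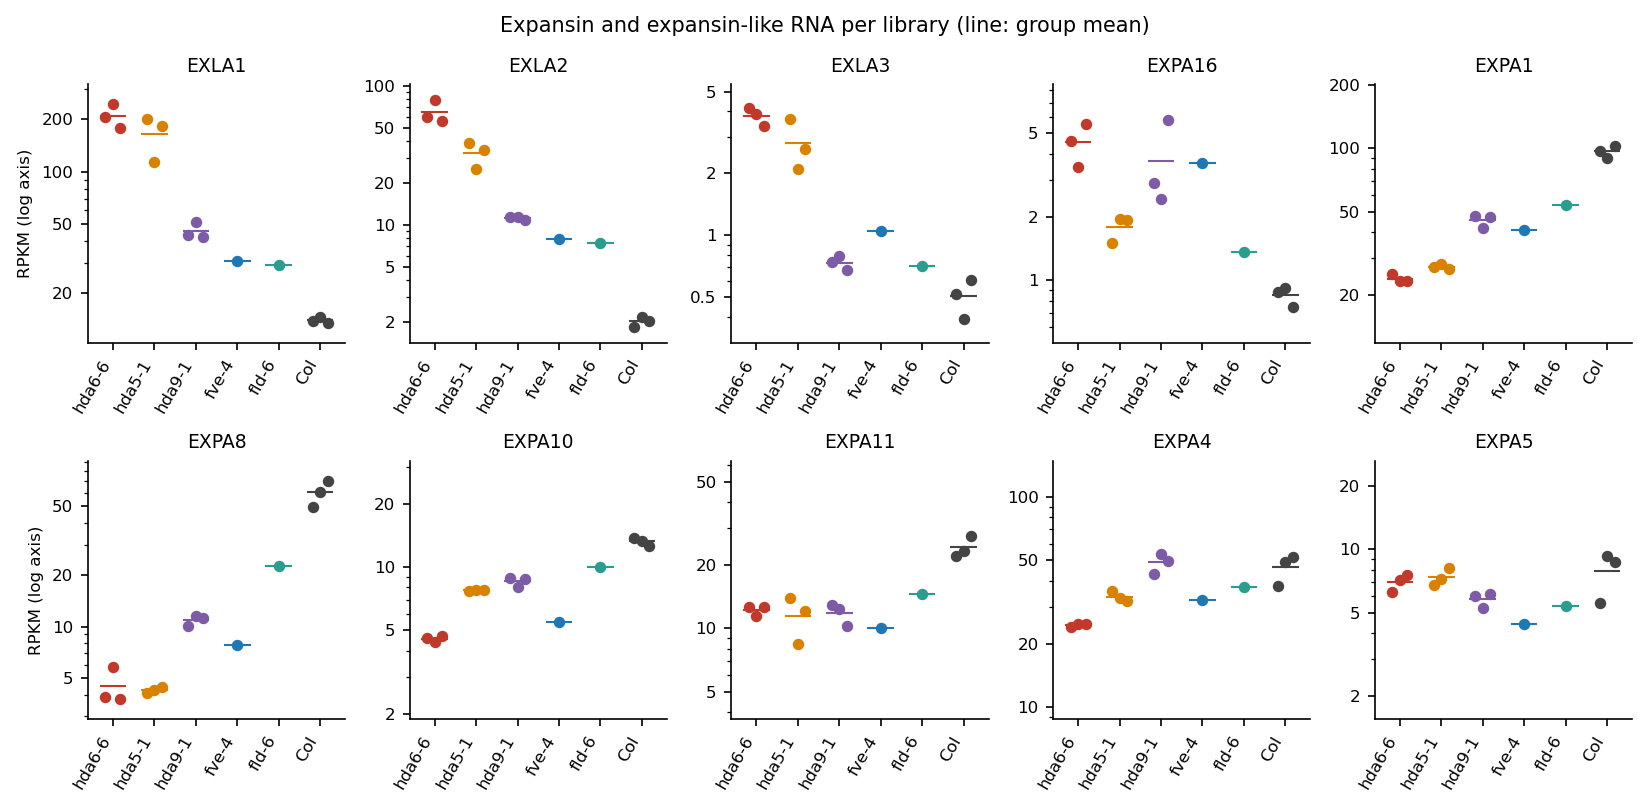
RPKM of the 10 genes on log axes in every library (dots) of hda6-6, hda5-1, hda9-1, fve-4, fld-6 and Col, with the group mean as a line. EXLA1 ran from 178 to 244 RPKM in hda6-6 and from 13.6 to 14.6 RPKM in Col, while EXPA8 ran from 3.77 to 5.81 RPKM in hda6-6 and from 49.7 to 70.6 RPKM in Col.

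EXLA1 was the most abundant of the 10 transcripts in hda6-6 and hda5-1 and the fifth in Col. It had 207, 244 and 178 RPKM in hda6-6, 200.5, 114 and 183 RPKM in hda5-1, 43.1, 51.5 and 42.5 RPKM in hda9-1, 30.9 RPKM in fve-4 and 29.1 RPKM in fld-6, against 13.9, 14.6 and 13.6 RPKM in Col. Every mutant library lay above every Col library, and hda6-6 and hda5-1 overlapped each other. The mean was 14.96-fold that of Col in hda6-6, 11.8-fold in hda5-1 and 3.26-fold in hda9-1. The log2 fold change was 3.88 ± 0.18 in hda6-6 (SE, adjusted p = 3.4e-08 in limma), 3.51 ± 0.18 in hda5-1 (3.9e-07) and 1.69 ± 0.18 in hda9-1 (7.0e-05). The single fve-4 library gave 1.13 ± 0.26 (adjusted p = 0.010 in limma), which became 0.94 and was no longer called after median-of-ratios scaling. The single fld-6 library gave 1.05 ± 0.26 and was not called (adjusted p = 0.054 in limma), though it passed at 0.046 with a filter of at least 1 RPKM and at 0.027 when only fld-6 and Col were fitted.

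EXLA2, which has been tied in earlier genetic work to the response to the fungus Botrytis, was scarce in Col. It had 59.6, 78.5 and 55.4 RPKM in hda6-6, 38.5, 25.3 and 34.2 RPKM in hda5-1, 11.3, 11.4 and 10.7 RPKM in hda9-1, 7.91 RPKM in fve-4 and 7.35 RPKM in fld-6, against 1.84, 2.18 and 2.04 RPKM in Col. No pair of groups with 3 libraries overlapped, and EXLA2 was the only one of the 10 genes besides EXPA8 that was called in all 5 mutants. The mean was 31.9-fold that of Col in hda6-6, 16.2-fold in hda5-1 and 5.52-fold in hda9-1. The log2 fold change was 4.92 ± 0.16 in hda6-6, 3.93 ± 0.16 in hda5-1, 2.41 ± 0.16 in hda9-1, 1.92 ± 0.23 in the fve-4 library and 1.82 ± 0.23 in fld-6 (adjusted p of 0.0014 or lower in limma). EXLA1 exceeded EXLA2 by 3.11 to 3.48 times in hda6-6, 4.50 to 5.36 times in hda5-1, 3.803 to 4.54 times in hda9-1, 3.91 times in fve-4 and 3.96 times in fld-6, against 6.66 to 7.54 times in Col. The RPKM ratio of the pair was lower in every mutant library than in every Col library.

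EXLA3, the neighbor of EXLA1, stayed at the lowest level of the class. It had 4.16, 3.91 and 3.402 RPKM in hda6-6, 3.69, 2.103 and 2.64 RPKM in hda5-1, 0.739, 0.794 and 0.681 RPKM in hda9-1, 1.05 RPKM in fve-4 and 0.707 RPKM in fld-6, against 0.520, 0.392 and 0.608 RPKM in Col. The hda6-6 and hda5-1 libraries stood clear of the other genotypes, and the remaining mutant values lay close above the Col range. EXLA3 rose in hda6-6 (log2 fold change 2.70 ± 0.21, adjusted p = 1.9e-06 in limma) and in hda5-1 (2.24 ± 0.21, 1.5e-05). It was not called in hda9-1 (0.48, 95% interval 0.02 to 0.94), fve-4 (0.94, interval 0.28 to 1.60) or fld-6 (0.43, interval -0.23 to 1.08), and these low values understate the fold on the RPKM + 0.1 scale. In fve-4 it was called with a pseudocount of 0.01 (1.06) and without Col replicate 3 (1.06).

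Markers of other cell types and of handling were read beside these genes. Of 11 touch and wound genes, the calmodulin-like gene TCH3 (log2 fold change 3.68 in hda6-6, 4.07 in hda5-1, 1.09 in hda9-1, 1.32 in fve-4 and 2.57 in fld-6) was higher in all 5 mutants, and the xyloglucan-modifying gene TCH4 was higher in hda6-6 (2.66) and hda5-1 (1.41). The summed level of these 11 genes was 2480 to 3786 RPKM in hda6-6, 2162 to 3351 in hda5-1, 483 to 606 in hda9-1, 569 in fve-4 and 1100 in fld-6, against 981 to 1589 in Col. Only 2 of the 11 were called higher in hda6-6, 2 in hda5-1 and 1 in hda9-1, against 7.95%, 5.51% and 2.1% of all genes. More of the list were called lower, 6 of 11 in hda6-6, 7 in hda5-1 and 9 in hda9-1, against 4.96%, 3.94% and 3.75% of all genes. The median log2 fold change of the 11 was -1.15 in hda6-6, -1.33 in hda5-1 and -2.31 in hda9-1. It was -2.80 in the fve-4 library and -1.20 in that of fld-6. The lowest of the 11 had -6.07 in hda6-6, the lowest value of all tested genes there, and -4.97 in hda5-1. The 6 morning clock genes summed to 21.6 to 29.0 RPKM in hda6-6, 39.3 to 41.7 in hda5-1, 25.1 to 31.7 in hda9-1, 30.03 in fve-4 and 50.7 in fld-6, against 66.5 to 71.3 in Col. The 9 root genes summed to 1122 to 1809 RPKM in the mutants and 1448 to 1773 RPKM in Col, a sum made up mostly of PYK10 (1582 RPKM on average in Col). Their median log2 fold change was 0.81 in hda6-6, 0.71 in hda5-1, 0.86 in hda9-1, 0.18 in the fve-4 library and 0.14 in that of fld-6. Of the 9, 3 were called, all higher in hda9-1 (COBL9, PRP3 and LRX1), against 2.1% of all genes called higher there. The 7 leaf genes summed to 39948 to 53222 RPKM in the mutants and 51821 to 59182 RPKM in Col, made up mostly of LHCB1.3 (35829 RPKM on average in Col). Their median was -0.39 in hda6-6, -0.19 in hda5-1, -0.21 in hda9-1, -0.32 in the fve-4 library and -0.33 in that of fld-6. The light-harvesting gene LHCB2.1 was called lower in hda5-1 (log2 fold change -1.32), hda9-1 (-1.81) and fve-4 (-2.63), and the carbonic anhydrase gene CA1 in fld-6 (-1.19). The 5 flower genes summed to 3.39 to 4.60 RPKM in hda6-6, 2.27 to 3.02 in hda5-1 and 7.75 to 8.27 in hda9-1. They summed to 6.13 RPKM in fve-4 and 2.67 in fld-6, against 5.08 to 6.62 in Col. The flower genes AP1, AP3 and AG were listed at 0 in replicates 1 and 2 of hda5-1 and in fve-4. In at least 1 library, 2 of the 5 flower genes were at 0 in hda6-6 and 2 in fld-6, against 0 in hda9-1 and 0 in Col. The 5 evening clock genes summed to 212 to 248 RPKM in hda6-6, 249 to 272 in hda5-1 and 258 to 345 in hda9-1. Their sum was 239 RPKM in fve-4 and 216 in fld-6, against 298 to 314 in Col. The part of handling, time of day or tissue share in the expansin values was not tested.

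**Figure D2:**
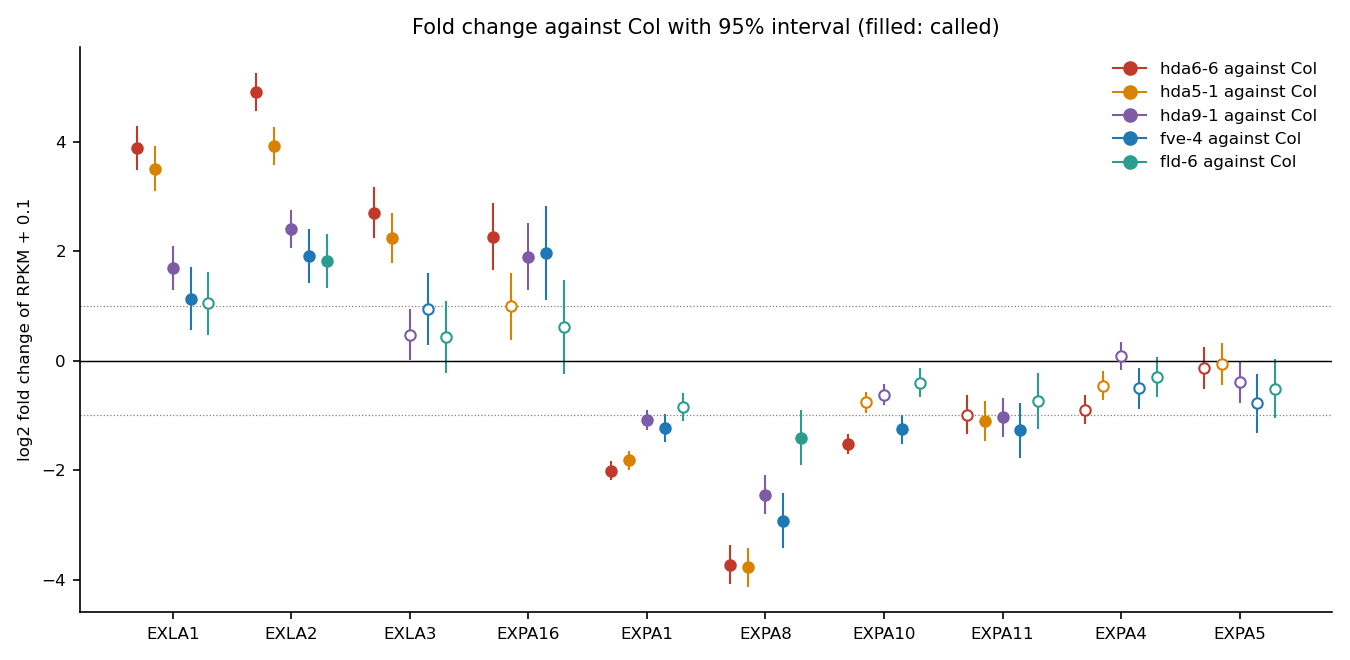
Log2 fold change of RPKM + 0.1 against Col for each gene in hda6-6, hda5-1, hda9-1, fve-4 and fld-6, with 95% intervals from limma, filled where called and open where not. The dotted lines mark a log2 fold change of 1 in size. EXLA2 lay highest in hda6-6 (4.92) and EXPA8 lowest in hda5-1 (-3.77).

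Among the alpha-expansins, EXPA8 showed the deepest fall. It had 3.92, 5.81 and 3.77 RPKM in hda6-6, 4.13, 4.25 and 4.47 RPKM in hda5-1, 10.13, 11.4 and 11.1 RPKM in hda9-1, 7.79 RPKM in fve-4 and 22.5 RPKM in fld-6, against 49.7, 60.8 and 70.6 RPKM in Col. All mutant libraries were below all Col libraries, hda6-6 and hda5-1 overlapped, and the fld-6 library was the nearest to Col. The Col mean exceeded that of hda6-6 by 13.4 times, of hda5-1 by 14.1 times and of hda9-1 by 5.54 times. The log2 fold change was -3.73 ± 0.16 in hda6-6, -3.77 ± 0.16 in hda5-1, -2.45 ± 0.16 in hda9-1, -2.92 ± 0.23 in the fve-4 library and -1.40 ± 0.23 in fld-6 (adjusted p of 0.0067 or lower in limma). By mean RPKM, EXPA8 ranked seventh of the 7 alpha-expansins in hda6-6, sixth in hda5-1 and second in Col.

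EXPA1, an alpha-expansin of leaves and guard cells that has been tied to stomatal opening, was the leading alpha-expansin transcript of Col. It had 25.2, 23.5 and 23.3 RPKM in hda6-6, 27.2, 28.1 and 26.5 RPKM in hda5-1, 47.8, 41.8 and 47.1 RPKM in hda9-1, 41.1 RPKM in fve-4 and 53.8 RPKM in fld-6, against 97.5, 89.6 and 103 RPKM in Col. The groups with 3 libraries did not overlap. EXPA1 fell in hda6-6 (log2 fold change -2.01 ± 0.08, adjusted p = 1.0e-08 in limma), hda5-1 (-1.82 ± 0.08, 1.1e-07), hda9-1 (-1.08 ± 0.08, 6.2e-06) and fve-4 (-1.23 ± 0.12, 6.4e-05). In fld-6 it had -0.84 ± 0.12, an adjusted p of 0.0026 in limma, but a fold change under the minimum.

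EXPA10, which supports leaf and petiole growth, had 4.59, 4.39 and 4.68 RPKM in hda6-6, 7.72, 7.75 and 7.81 RPKM in hda5-1, 8.88, 8.06 and 8.77 RPKM in hda9-1, 5.48 RPKM in fve-4 and 9.97 RPKM in fld-6, against 13.8, 13.4 and 12.6 RPKM in Col. Its replicates lay close together and no triplicate mutant overlapped Col or another mutant. It was called lower in hda6-6 (-1.52 ± 0.09, adjusted p = 1.3e-07 in limma) and fve-4 (-1.26 ± 0.12, 8.3e-05), and had -0.76 in hda5-1, -0.62 in hda9-1 and -0.40 in fld-6.

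EXPA11 had 12.6, 11.4 and 12.7 RPKM in hda6-6, 14.0, 8.45 and 12.1 RPKM in hda5-1, 12.9, 12.4 and 10.3 RPKM in hda9-1, 10.01 RPKM in fve-4 and 14.6 RPKM in fld-6, against 22.2, 23.5 and 27.5 RPKM in Col. The triplicate mutants overlapped each other, and all mutant libraries lay below Col. Its log2 fold change was -0.98 in hda6-6, -1.10 in hda5-1, -1.04 in hda9-1, -1.27 in fve-4 and -0.73 in fld-6, each with an SE of 0.16 or, for the single libraries, 0.23. These values straddle the fold minimum, so EXPA11 was called lower in hda5-1, hda9-1 and fve-4 and not in hda6-6, and the calls moved with single libraries. It was called in hda6-6 without hda6-6 replicate 1 (-1.01), hda6-6 replicate 3 (-1.01), Col replicate 1 (-1.05) or Col replicate 2 (-1.01), was not called in hda5-1 without hda5-1 replicate 2 (-0.90), and was not called in hda9-1 without hda9-1 replicate 3 (-0.94) or Col replicate 3 (-0.95).

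EXPA16 was the alpha-expansin that rose. It had 4.60, 3.45 and 5.54 RPKM in hda6-6, 1.51, 1.95 and 1.94 RPKM in hda5-1, 2.89, 2.42 and 5.75 RPKM in hda9-1, 3.61 RPKM in fve-4 and 1.36 RPKM in fld-6, against 0.883, 0.921 and 0.749 RPKM in Col. All mutant libraries lay above Col, and hda6-6 and hda9-1 overlapped. It rose in hda6-6 (log2 fold change 2.26 ± 0.28, adjusted p = 6.8e-05 in limma), hda9-1 (1.90 ± 0.28, 5.5e-04) and fve-4 (1.97 ± 0.40, 0.0052), and had 0.99 ± 0.28 in hda5-1 (adjusted p = 0.021) and 0.62 ± 0.40 in fld-6 (0.49). In hda5-1 it was called with a pseudocount of 0.01 (1.07) and without hda5-1 replicate 1 (1.11), Col replicate 1 (1.02) or Col replicate 2 (1.05). Its protein was 84.8% identical to that of EXPA4.

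EXPA4, which has been tied to pollen tube growth, had 24.2, 24.9 and 24.8 RPKM in hda6-6, 35.5, 33.0 and 31.8 RPKM in hda5-1, 42.9, 53.7 and 49.5 RPKM in hda9-1, 32.2 RPKM in fve-4 and 37.2 RPKM in fld-6, against 37.7, 49.1 and 51.9 RPKM in Col. It was called in no mutant, with a log2 fold change of -0.89 (95% interval -1.15 to -0.63) in hda6-6 and 0.08 (interval -0.18 to 0.35) in hda9-1, and was called in hda6-6 without Col replicate 1 (-1.03). EXPA5, which has been tied to brassinosteroid-promoted growth, had 6.26, 7.11 and 7.59 RPKM in hda6-6, 6.75, 7.26 and 8.14 RPKM in hda5-1, 5.99, 5.26 and 6.16 RPKM in hda9-1, 4.42 RPKM in fve-4 and 5.35 RPKM in fld-6, against 5.53, 9.26 and 8.74 RPKM in Col. The triplicate mutants overlapped Col. EXPA5 was called in no mutant, with intervals of -0.52 to 0.25 in hda6-6, -0.44 to 0.33 in hda5-1 and -0.78 to -0.01 in hda9-1, and -0.78 (interval -1.32 to -0.24) in fve-4, where it was called without Col replicate 1 (-1.01).

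The sums of each class show how the make-up of expansin RNA differed. The 3 expansin-like A genes summed to 278 ± 45.3 RPKM in hda6-6, 201 ± 53.4 in hda5-1, 57.6 ± 5.29 in hda9-1, 39.9 in fve-4 and 37.1 in fld-6, against 16.5 ± 0.529 in Col (SD, n = 3, or n = 1 for fve-4 and fld-6). The 7 alpha-expansins summed to 81.4 ± 0.917 RPKM in hda6-6, 93.4 ± 3.03 in hda5-1, 135 ± 3.65 in hda9-1, 105 in fve-4 and 145 in fld-6, against 250 ± 23.9 in Col. All 36 family genes together summed to 446 to 524 RPKM in hda6-6, 358 to 475 in hda5-1, 338 to 351 in hda9-1, 273 in fve-4 and 332 in fld-6, against 395 to 487 in Col, so that the totals of hda6-6 and hda5-1 overlapped that of Col. The expansin-like A share of the family total was 53.1 to 62.3% in hda6-6, 39.4 to 51.0% in hda5-1, 15.4 to 18.3% in hda9-1, 14.6% in fve-4 and 11.2% in fld-6, against 3.33 to 4.12% in Col. These sums are descriptions without a test, since the genes were chosen with results known.

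**Figure D3:**
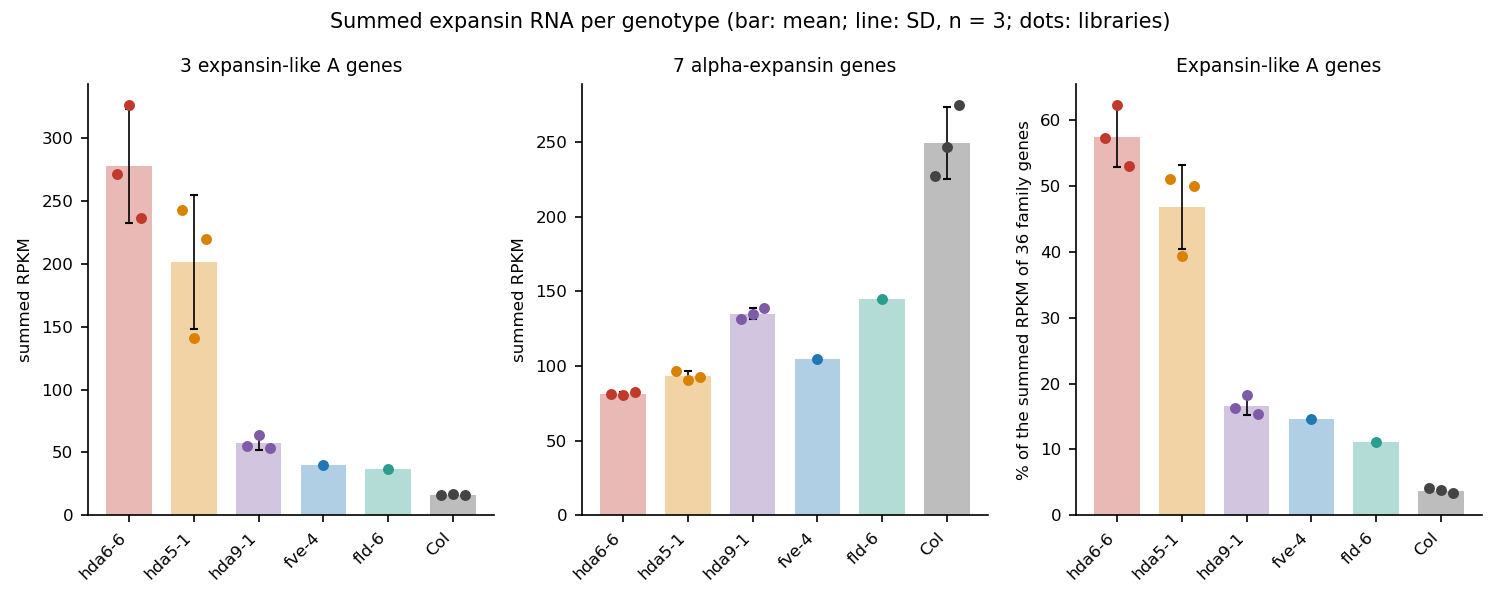
Summed RPKM per library (dots) of the 3 expansin-like A genes, of the 7 alpha-expansin genes, and the expansin-like A share of all 36 family genes, with the mean as a bar and the SD (n = 3) as a line. The expansin-like A share averaged 57.5% in hda6-6 and 3.75% in Col.

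The mutants differed from each other in the size of the expansin-like A response. Between hda6-6 and hda9-1, 3 of the 10 genes were called higher, EXLA1 (log2 fold change 2.19 ± 0.18), EXLA2 (2.51 ± 0.16) and EXLA3 (2.22 ± 0.21), and 1 was called lower, EXPA8 (-1.29 ± 0.16), against 6.15% and 1.79% of all genes (adjusted p of 1.8e-04 or lower in limma). Between hda5-1 and hda9-1, the same 4 genes were called: EXLA1 (1.82 ± 0.18), EXLA2 (1.52 ± 0.16) and EXLA3 (1.76 ± 0.21) were higher and EXPA8 (-1.33 ± 0.16) was lower, against 4.27% and 1.99% of all genes. Between hda6-6 and the averaged fve-4 and fld-6 libraries, they were called again, with 2.79 ± 0.21 for EXLA1, 3.05 ± 0.18 for EXLA2, 2.02 ± 0.24 for EXLA3 and -1.57 ± 0.18 for EXPA8, against 5.73% higher and 2.07% lower of all genes. These comparisons share libraries, and the last rests on 1 library of each of the 2 genotypes. Other genes came close to the fold minimum without a call. Between hda6-6 and hda9-1, EXPA1 had -0.92, EXPA4 -0.97 and EXPA10 -0.90 (adjusted p of 1.4e-04 or lower in limma). EXPA4 was called there without hda9-1 replicate 1 (-1.06). EXPA16 had -0.90 between hda5-1 and hda9-1, and was called without hda9-1 replicate 1 (-1.03) or 2 (-1.15). Against the averaged fve-4 and fld-6 libraries, EXPA1 had -0.97 and EXPA16 0.97 in hda6-6.

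Between hda6-6 and hda5-1, fewer of the 10 genes were called. Of them, 1 was called higher in hda6-6, EXPA16 (log2 fold change 1.27 ± 0.28, adjusted p = 0.010 in limma), and 0 lower, against 3.68% and 1.67% of all genes. At an unadjusted p under 0.05 in limma and with no minimum fold, 2 of the 10 were higher and 3 lower. The share of all genes at that looser threshold was not computed, so these counts cannot be set against the 3.68% and 1.67%. The call of EXPA16 was lost with a pseudocount of 1 (0.97) and without hda6-6 replicate 3 (1.11, adjusted p = 0.053 in limma). EXLA2 had 0.98 ± 0.16 (adjusted p = 0.0014), just under the fold minimum, and was called after median-of-ratios scaling (1.00) and without hda6-6 replicate 1 (1.03), hda6-6 replicate 3 (1.09), hda5-1 replicate 1 (1.11) or hda5-1 replicate 3 (1.03). EXPA10 had -0.76 ± 0.09 (adjusted p = 9.3e-05). For EXLA1 the difference was 0.37 (95% interval -0.03 to 0.77), for EXPA8 0.04 (interval -0.32 to 0.40), for EXPA1 -0.18 (interval -0.36 to -0.01) and for EXPA11 0.12 (interval -0.24 to 0.48).

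Of the 26 other family genes, 16 passed the filter, 9 were listed at 0 in all 14 libraries (EXPA19, EXPA22 to EXPA26 and EXPB4 to EXPB6), and EXPA2 stayed below the filter. In hda6-6, 1 of the 16 was called higher (EXPA7) and 3 lower (EXPA15, EXPB1 and EXPB3), against 7.95% and 4.96% of all genes, with a median log2 fold change of -0.18. In hda5-1, 1 was higher (EXPB2) and 1 lower (EXPA15), against 5.51% and 3.94% of all genes. In hda9-1, 1 was higher (EXPA18) and 0 lower, against 2.1% and 3.75%. In fve-4, 0 were higher and 1 lower (EXPB3), against 3.9% and 3.98%, and limma called 0 in either direction in fld-6, where the shares were 0.677% and 1.13%. At an unadjusted p under 0.05 in limma, with no minimum fold, 4 of the 16 were higher and 5 lower in hda6-6. The counts were 2 higher and 6 lower in hda5-1, and 5 higher and 5 lower in hda9-1. The share of all genes at that threshold was not computed, so these counts are not read as a result. The log2 fold changes of the 16 ran from -1.61 to 0.93 in the fve-4 library and from -0.70 to 0.73 in that of fld-6. EXLB1, the family's gene of the expansin-like B class, had 13.8 to 25.6 RPKM in hda6-6 and 19.4 to 25.5 RPKM in Col and was called in no mutant.

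**Figure D4:**
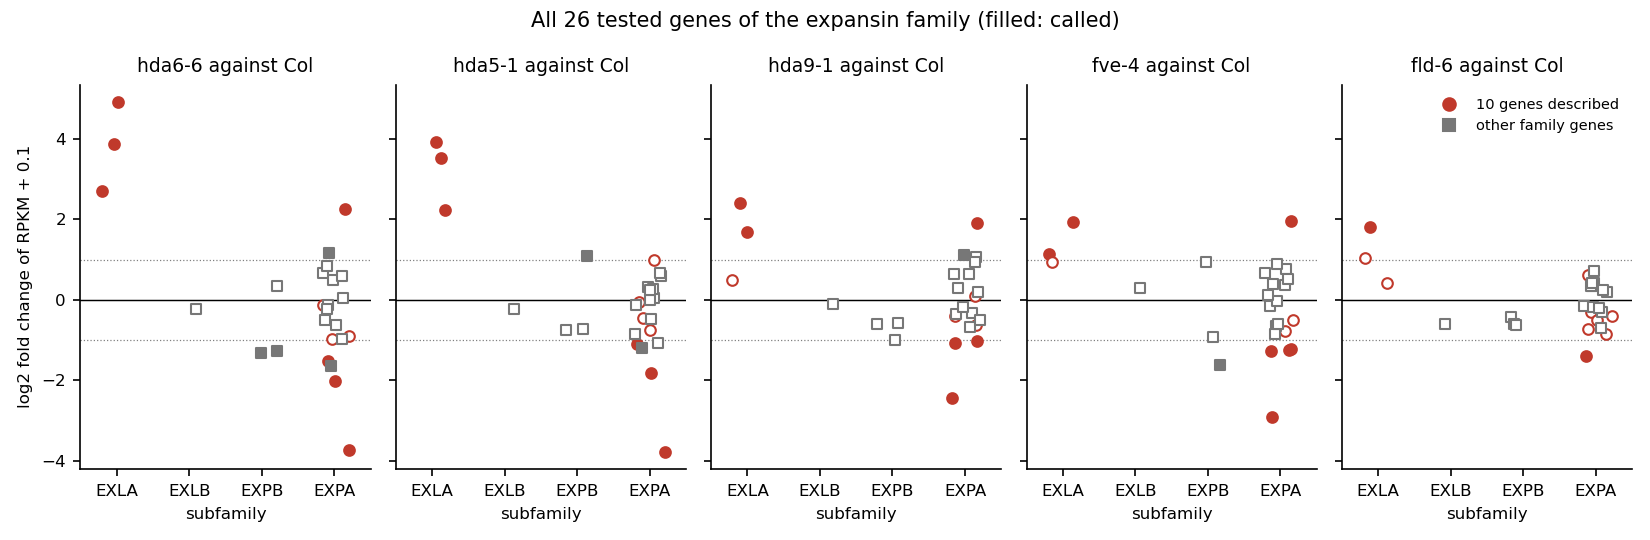
Log2 fold change of RPKM + 0.1 against Col for all 26 tested family genes by subfamily in each mutant, circles for the 10 genes described and squares for the other 16, filled where called. The expansin-like A genes (EXLA) lay between 2.70 and 4.92 in hda6-6, where the squares ran from -1.66 to 1.17.

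EXPA15 had 4.48, 4.18 and 3.96 RPKM in hda6-6 and 7.89, 4.87 and 5.18 RPKM in hda5-1, against 10.9, 14.1 and 15.8 RPKM in Col. Its log2 fold change was -1.66 ± 0.22 in hda6-6 and -1.19 ± 0.22 in hda5-1 (adjusted p = 9.7e-05 and 0.0015 in limma). EXPB3 had 15.7, 17.4 and 17.9 RPKM in hda6-6 and 13.3 RPKM in fve-4, against 32.3, 41.5 and 51.1 RPKM in Col, with -1.26 ± 0.16 in hda6-6 and -1.61 ± 0.23 in fve-4. EXPB1 (-1.32 in hda6-6) and EXPB2 (1.10 in hda5-1) stayed at 2.42 RPKM or lower in every library. The root-hair expansins EXPA7 (1.17 in hda6-6, adjusted p = 0.037 in limma) and EXPA18 (1.12 in hda9-1, adjusted p = 0.030) had their lowest Col value in replicate 3 (1.20 and 2.29 RPKM), where the root gene PRP3 also had its lowest Col value (8.23 RPKM, against 16.1 and 20.8 RPKM in the other Col libraries). The part of root share in these values was not tested.

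The genes outside the family with the profile most like EXLA2 over the 14 libraries were XTH33, AT1G50040, MIOX2, EXO and AT4G32800. Likeness was the root mean square difference of log2(RPKM + 0.1) after centering each gene, over 15856 genes with a mean of at least 2 RPKM. It was 0.39, 0.42, 0.61, 0.63 and 0.68 for these genes, against a median of 1.77. A gene with the same level in every library would stand at 1.76, so that median mostly reflects the size of the EXLA2 change. XTH33, a xyloglucan endotransglucosylase/hydrolase, averaged 7.41 RPKM in hda6-6, 3.71 in hda5-1, 1.23 in hda9-1, 1.08 in fve-4 and 0.738 in fld-6, against 0.0963 in Col. It passed the minimum mean through hda6-6 and hda5-1, and with a Col level below the added 0.1 RPKM its likeness to EXLA2 depends on that pseudocount. EXO, a brassinosteroid-responsive growth gene, averaged 583 RPKM in hda6-6 and 47.5 RPKM in Col, and MIOX2, an enzyme that feeds wall sugar synthesis, 99.0 and 7.39 RPKM.

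The genes most like EXPA8 were NCED4, which cleaves carotenoids (0.42), the Dof factor gene CDF3 (0.50), the potassium channel gene KT2/3 (0.50), the chloroplast regulator gene GLK2 (0.55) and AT1G60590 (0.55), against a median of 1.503. Here a gene with the same level in every library would stand at 1.46. NCED4 averaged 38.1 RPKM in hda6-6, 27.2 in hda5-1, 62.7 in hda9-1, 39.8 in fve-4 and 63.0 in fld-6, against 339 RPKM in Col. GLK2 averaged 8.63 RPKM in hda6-6 and 47.5 RPKM in Col. KT2/3 (0.861 RPKM in hda6-6 and 6.35 in Col) and AT1G60590 (0.643 and 9.07) passed the minimum mean through Col. That is the group where EXPA8 was high, so their place in the list depends partly on this filter. Among the 10 genes themselves, EXPA4 and EXPA10 (0.32), EXLA1 and EXLA2 (0.37) and EXPA1 and EXPA10 (0.38) were the closest pairs, and EXPA8 and EXLA2 (3.16) were the farthest apart. All of these profiles share the same 14 libraries and are given as descriptions.

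**Figure D5:**
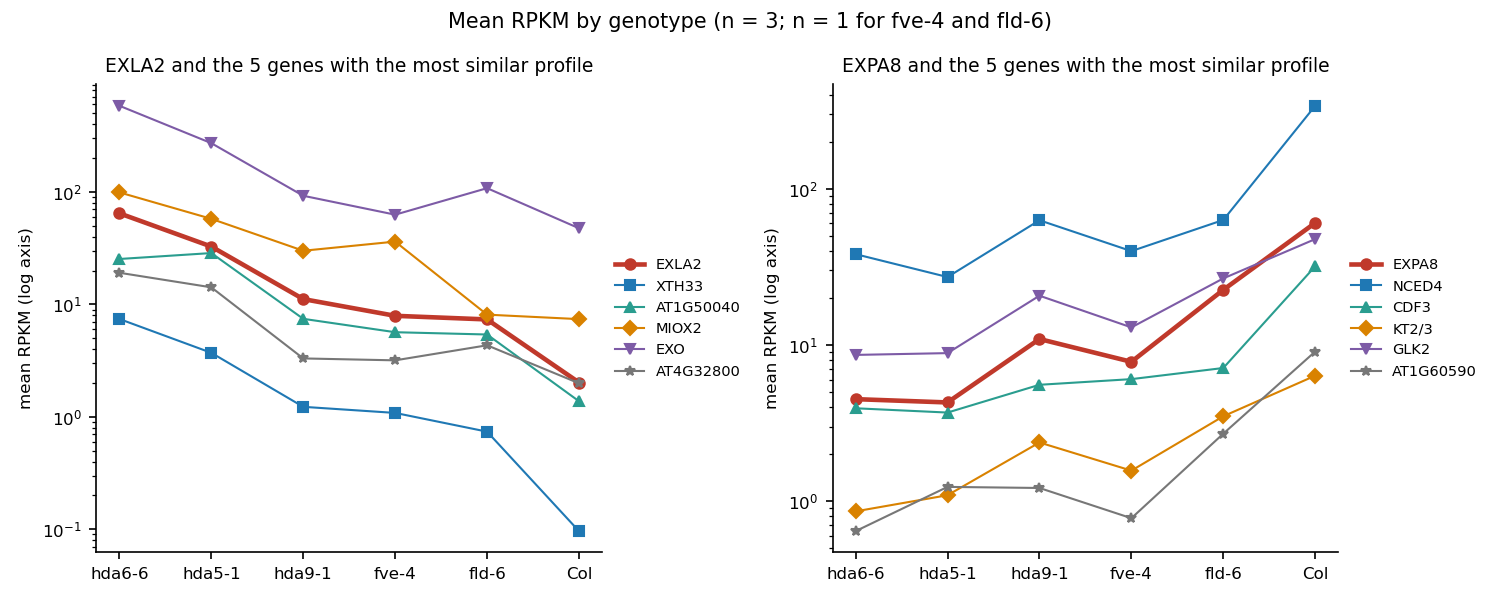
Mean RPKM on log axes by genotype, from hda6-6 to Col, for EXLA2 and EXPA8 (thick lines) and the 5 genes nearest to each (thin lines). EXLA2 averaged 64.5 RPKM in hda6-6 and 2.02 RPKM in Col, and EXPA8 4.50 RPKM in hda6-6 and 60.4 RPKM in Col.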

How the data were processed

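Per the labels and the study's methods, poly-A RNA of whole plants was made into random-primed libraries and sequenced on an Illumina machine, FASTQ files were made with CASAVA 1.8, reads were mapped to TAIR10 (the processing notes name Bowtie2), and the authors computed RPKM with RackJ. Mapping settings and the treatment of reads that match several genes are not given in the sources used here, nor is strand. The deposited files hold 1 RPKM value a gene for 14 libraries, with no counts.

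The 10 genes, the gene lists and the tests were chosen with earlier results of these data known. Genes above 0.1 RPKM in at least 3 libraries (23187 genes) were tested with limma 3.58.1 in R 4.3.3 on log2(RPKM + 0.1), with genotype as the only factor over all 14 libraries (8 residual degrees of freedom), empirical Bayes moderation with a trend, and Benjamini-Hochberg adjustment over all tested genes. Fold changes are on that scale and understate the change of low genes. In fve-4 and fld-6 the single library was assumed to vary like the triplicate groups. The fit was tested on simulated data. Named genes were all 10 members, other family genes called against Col, the mutated genes, and the 5 nearest profiles of EXLA2 and EXPA8. EXLB1 and the marker genes given by name were chosen after their values were seen. Sequences, promoters of 250 bases and gene positions came from RefSeq TAIR10.1, read with Python 3.11.15, and encoded proteins were aligned with Biopython 1.88. Depth was estimated as the library size at which the most low RPKM values (25.0 to 34.8%, against a median of 2.29 to 3.06% over other sizes) were whole read numbers within 0.02, so read numbers are approximate. Alternatives were pseudocounts of 1 and 0.01, no filter, a filter at 1 RPKM, median-of-ratios scaling, a replicate block, fits of the compared groups only, no trend, and leaving out each library. No library was left out of the main values, and no 2 libraries held identical values.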

Additional observations from a re-analysis of the deposited data

How the results depend on the processing

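Of 1170 alternative values of the 10 genes over 9 comparisons, 1136 stayed called or stayed not called, 7 lost a call and 27 gained one. Of the 1136, 12 changed sign without a call in either setting, and 0 called values changed sign. Counts of members called stayed within 1.5 times of the reported count, except between hda6-6 and hda5-1, where 1 gene was called with the main settings, 0 with a pseudocount of 1, 2 after median-of-ratios scaling, and 1 to 2 when single libraries were left out. Leaving out single libraries gave 7 to 9 called genes in hda6-6, 5 to 7 in hda5-1, 5 to 6 in hda9-1, 7 to 8 in the fve-4 comparison and 2 in that of fld-6. The single fve-4 and fld-6 libraries could not be left out.

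Median-of-ratios scaling moved the median of all genes in fve-4 from 0.19 to 0.01, and the calls of all genes there from 905 higher and 924 lower to 452 higher and 1223 lower. A pseudocount of 1 lowered the calls of all genes in hda6-6 to 920 higher and 703 lower, against 1844 and 1149 with 0.1. With the replicate block, 7 of the 10 genes were called in hda6-6, 6 in hda5-1, 6 in hda9-1, 7 in the fve-4 comparison and 2 in that of fld-6, and the block changed no call of a member. Same-numbered libraries deviated together with a correlation over 0.1 in 6 of 18 pairs (-0.07 to 0.17). A cut at 0.1 does not decide whether the numbers pair the libraries. Of these 6 pairs, 5 were between replicate 1 libraries, whose correlations were all positive (0.088 to 0.17). EXLA3 at about 12 reads in Col and EXPA16 at about 20 set the depth limit.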
